A study of Rattus norvegicus with 2 samples.

Results

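The subject here is a set of 3 microRNAs carried in introns of myosin heavy chain genes: mir-208a, mir-208b and mir-499. They were found by name in the deposited tables of miRNA hairpin counts, where each has 1 row, and they make up 3 of the 193 unmarked miRNA rows. The study sequenced small RNA of Wistar rat hearts, taken at an age of 16 weeks, with left ventricle as the labelled tissue. In the swim group, a model of heart growth through exercise, rats swam in 2 daily sessions of 90 minutes over 8 weeks; the control group is labelled only as control, and both groups were kept under normal conditions with free access to food and water. Each group is represented by 1 library, and how many animals a library holds is not stated in the labels, so there is no spread between animals, no test between the groups was possible, and every interval below covers counting error only.

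Ventricular muscle is driven by myosin heavy chain motors, and the heart muscle cell carries a regulatory miRNA in several of the genes that encode them. The miRNA mir-208a lies in Myh6, the gene of the fast alpha myosin heavy chain that predominates in the adult rodent ventricle. Its close relative mir-208b lies in Myh7, the gene of the slow beta chain, which rodents use in fetal heart and in slow skeletal muscle. The miRNA mir-499 lies in Myh7b, a more distant slow-type myosin gene. Each miRNA is cut from its host's primary transcript, and in mice miR-208a is known to be needed for the rise of the beta chain under cardiac stress and for normal levels of the other two. The tables hold no messenger RNA, so the myosin genes themselves were not measured.

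The mature miRNAs are shown because their seeds define the family and because their likeness bears on whether reads of one could be counted for another. All 3 matched an entry in RefSeq (build GRCr8), from which the sequences were taken; the capitals mark the seed, bases 2 to 8 counted from the 5′ end.
rno-miR-208a-3p: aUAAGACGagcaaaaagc
rno-miR-208b-3p: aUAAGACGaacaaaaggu
rno-miR-499-5p: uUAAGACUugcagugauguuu
The seed of miR-208a-3p and miR-208b-3p is the same, UAAGACG, and no other of the 693 mature names in the RefSeq table has it. The seed of miR-499-5p, UAAGACU, differs from it at 1 base, the last. Bases 2 to 7 are common to these 3 mature miRNAs and to no others in the table.

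Over the 18 bases that RefSeq lists for both, miR-208a-3p and miR-208b-3p differ at 3 positions, written with the miR-208a-3p base first: G10A, A16G and C18U. Their first 9 bases are identical. The miRNA miR-499-5p differs from miR-208a-3p at 8 of 18 positions and from miR-208b-3p at 10. The sources used here do not state how many mismatches the authors' alignment allowed, and whether reads passed between the mir-208a and mir-208b rows was not tested.

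The rows carry hairpin names, so each count may hold reads of both arms. The hairpins are shown with the mature miRNA above in capitals.
Mir208a: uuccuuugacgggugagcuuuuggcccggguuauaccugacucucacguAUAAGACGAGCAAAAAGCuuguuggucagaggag
Mir208b: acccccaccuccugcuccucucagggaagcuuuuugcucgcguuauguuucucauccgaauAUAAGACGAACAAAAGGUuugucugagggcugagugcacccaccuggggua
Mir499a: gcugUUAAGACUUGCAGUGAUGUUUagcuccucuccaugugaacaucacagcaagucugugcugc
In the miR-208 hairpins the mature miRNA lies on the 3′ arm, and in the miR-499 hairpin on the 5′ arm. On build GRCr8 the Mir208a hairpin spans chr15:32395552-32395634 on the minus strand and the Mir208b hairpin chr15:32421615-32421726 on the same strand. They are 25980 bases apart, and Mir208b stands upstream of Mir208a in the direction of transcription. The Mir499a hairpin is on another chromosome, at chr3:164570612-164570676 on the plus strand. In the RefSeq gene table of that build the spans of Myh6, Myh7 and Myh7b hold Mir208a, Mir208b and Mir499a in that order, each on its host's strand. Spans of long non-coding RNA genes that the table names only by locus number also hold Mir208a and Mir208b. On the opposite strand to Mir208a lies a further annotated miRNA, Mir3546, for which neither deposited table has a row.

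The miRNA mir-208b was the most abundant of the set in both libraries and stood far higher in the swim library, while the levels of mir-499 and mir-208a differed little. The control library held 2460845 counts over the unmarked miRNA rows and the swim library 3219939, and levels are given in CPM, each count divided by its library's total and multiplied by 1000000. The row of mir-208b held 9353 counts in control and 32356 in swim. This gave mir-208b a level of 3801 CPM in the control library (95% exact binomial interval 3724 to 3878) and of 10049 CPM in the swim library (9940 to 10158). The intervals of the libraries lie far apart.

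The row of mir-499 held 2898 counts in control and 4504 in swim. This is 1178 CPM for control (1135 to 1221) and 1399 CPM for swim (1358 to 1440). The swim library was the higher one, and the intervals do not overlap. The row of mir-208a, the lowest of the set, held 1774 counts in control and 2086 in swim. This is 721 CPM for control (688 to 755) and 648 CPM for swim (620 to 676). Here the raw count was higher in the swim library and the CPM was lower, so the direction rests on the scaling.

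**Figure D1:**
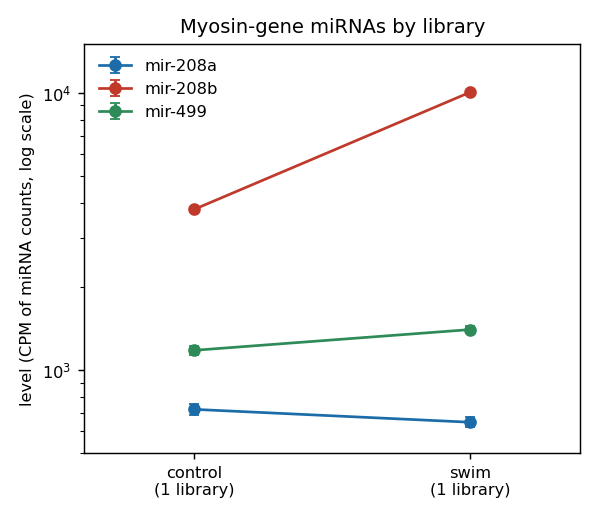
Level of each miRNA (CPM of the unmarked miRNA counts, log axis) in the control and the swim library, 1 library each; bars are 95% exact binomial intervals, mostly smaller than the points. The line of mir-208b climbs from 3801 to 10049 CPM, while mir-499 and mir-208a stay near 1178 to 1399 and 721 to 648 CPM.

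The order of the levels was the same in both libraries, with mir-208b first, mir-499 second and mir-208a last, and no interval of one member overlapped that of another. Among the 191 entries with a ratio, mir-208b ranked 22nd by count in control and 14th in swim. The entry mir-499 went from rank 50 to rank 45. The entry mir-208a stood at rank 55 in control and rank 56 in swim. Adapter ligation captures different miRNA sequences unequally, so an order of levels among miRNAs is an order of read counts and not of molecules.

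Together the 3 miRNAs took 0.570% of the control counts (95% exact binomial interval 0.561 to 0.579%) and 1.21% of the swim counts (1.20 to 1.22%). Summed, they came to 5699 CPM in control against 12095 CPM in swim. Of this difference of 6396 CPM, mir-208b made up 6248 CPM, or 97.7%. With mir-208b left aside, mir-208a and mir-499 together had a swim-to-control ratio of 1.08 (1.04 to 1.12).

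The make-up of the set therefore differed between the libraries. The share of mir-208b in the summed counts of the 3 was 66.7% in control (65.9 to 67.5%) and 83.1% in swim (82.7 to 83.5%). The share of mir-499 was 20.7% in control (19.996 to 21.3%) and 11.6% in swim (11.2 to 11.9%). That of mir-208a was 12.6% in control (12.1 to 13.2%) and 5.36% in swim (5.13 to 5.58%). A lower share need not be a lower level: the CPM of mir-499 was higher in swim, and that of mir-208a was lower.

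**Figure D2:**
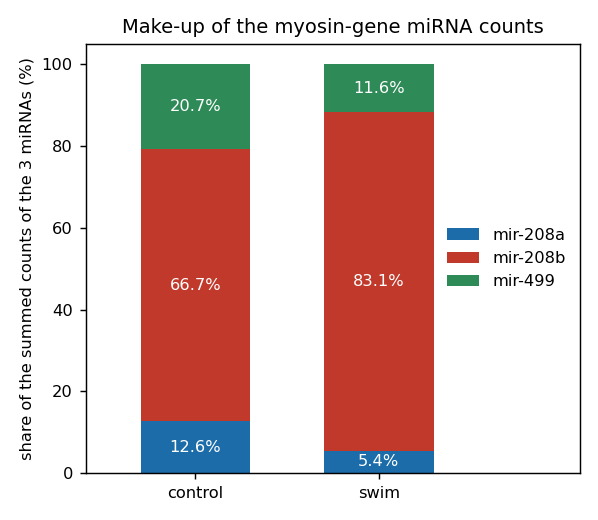
Share of each miRNA (percent) in the summed counts of the 3, for the control and the swim library. The mir-208b block takes 66.7% of the control bar and 83.1% of the swim bar.

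Setting swim against control addresses how cardiac miRNAs differ after training. The swim-to-control ratio of mir-208b was 2.64 (95% exact conditional binomial interval 2.58 to 2.71), that of mir-499 was 1.19 (1.13 to 1.24) and that of mir-208a was 0.899 (0.843 to 0.958). An entry was called by a rule of size and counting error: a log2 ratio of at least 1 in size (2-fold) with a pseudocount of 0.5, and an interval that leaves out 1. By this rule mir-208b was called higher, and mir-499 and mir-208a were not called. Of all 173 entries whose counts in both libraries sum to 20 or more, 3.47% were called higher and 32.9% lower, with a median log2 ratio of -0.59. Most low ratios belong to sparse entries. Among the 79 entries whose counts sum to 1000 or more, a bound chosen after seeing the data and passed by all 3 members, 6.33% were called higher and 3.80% lower, with a median log2 ratio of 0.07. Copies of a hairpin count as separate entries in all these shares and in the lists below. The higher calls among the 79 thus hold both copies of mir-19b, and mir-208b itself. The lower calls hold both copies of mir-29b. Among those 79 entries 1 had a higher ratio than mir-208b, 23 had a higher ratio than mir-499 and 54 a higher ratio than mir-208a.

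**Figure D3:**
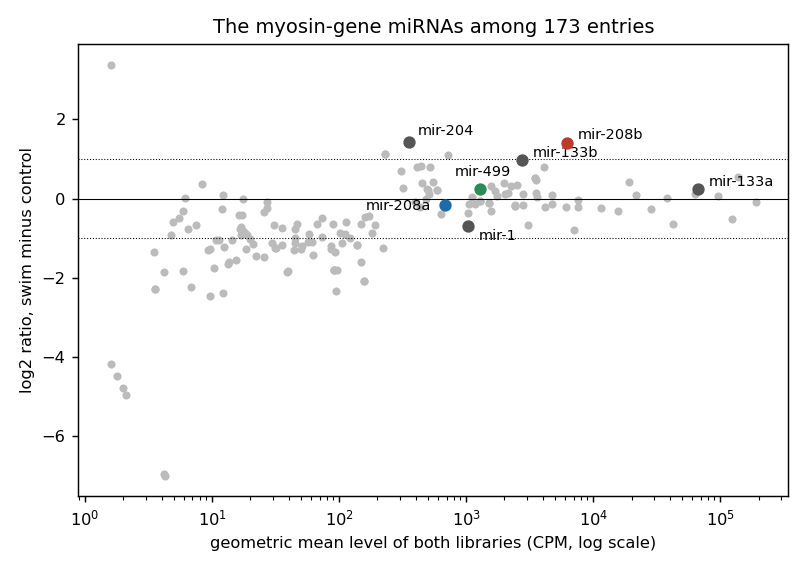
Log2 ratio of swim over control (vertical axis, 0.5 added to each count) against the geometric mean level of both libraries (CPM, log axis) for 173 entries; dotted lines mark 2-fold. The point of mir-208b lies above the upper dotted line at a log2 ratio of 1.403, with mir-499 at 0.25 and mir-208a at -0.15 near the line of equal levels.

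The entries nearest to each member in control abundance give a local comparison. In the control library the entry next above mir-208b was mir-100, with 9550 counts, and the one next below was mir-16, with 8795. Their ratios were 0.628 (0.609 to 0.647) and 1.02 (0.993 to 1.05), both below the 2.64 of mir-208b. The entry next above mir-499 was mir-150, at a ratio of 0.908 (0.865 to 0.953), and the one next below was mir-142, at 0.785 (0.745 to 0.826). Both are leukocyte miRNAs, and both lie under the ratio of mir-499. Around mir-208a stood mir-351, at 0.763 (0.714 to 0.815), and mir-181b-1, at 1.17 (1.09 to 1.25), one on each side of its ratio.

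The entries whose ratio was nearest to that of each member were sought among entries whose counts sum to 100 or more, by the difference in log2 ratio over these 2 libraries, with only the first copy of a hairpin that has several. For mir-208b they were mir-204 at 2.70 (2.45 to 2.98), mir-19b-1 at 2.19 (1.95 to 2.47) and mir-148b at 2.15 (2.01 to 2.30). Of these only the interval of mir-204 overlaps that of mir-208b, and its counts were far lower, at 531 and 1876. For mir-499 the nearest were mir-133a, mir-107 and mir-181d, all within 0.02 of it on the log2 scale. The miRNA mir-133a, a repressor of growth-related genes in heart muscle, is thus the entry nearest to mir-499. For mir-208a the nearest were mir-99a, mir-150 and mir-23a, within 0.02 of it as well. A likeness over 2 libraries rests on 1 difference each and many entries lie close together, so it describes these values only.

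A ratio of 2 miRNAs within a library is not altered by any scaling, so the changes of these ratios were compared. The count of mir-208b was 5.27 times that of mir-208a in control (5.01 to 5.55) and 15.5 times in swim (14.8 to 16.2), a 2.94-fold difference between the libraries (2.75 to 3.15). Against mir-499, the count of mir-208b was 3.23 times as high in control (3.10 to 3.37) and 7.18 times in swim (6.96 to 7.41), a 2.23-fold difference (2.11 to 2.34). The count of mir-499 was 1.63 times that of mir-208a in control (1.54 to 1.73) and 2.16 times in swim (2.05 to 2.28), a 1.32-fold difference (1.22 to 1.43). In the swim library mir-208b therefore stood higher against both of the others, and mir-499 stood higher against mir-208a by a smaller factor. Unequal capture enters each ratio within a library, and it cancels from the change only if both libraries were made alike.

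**Figure D4:**
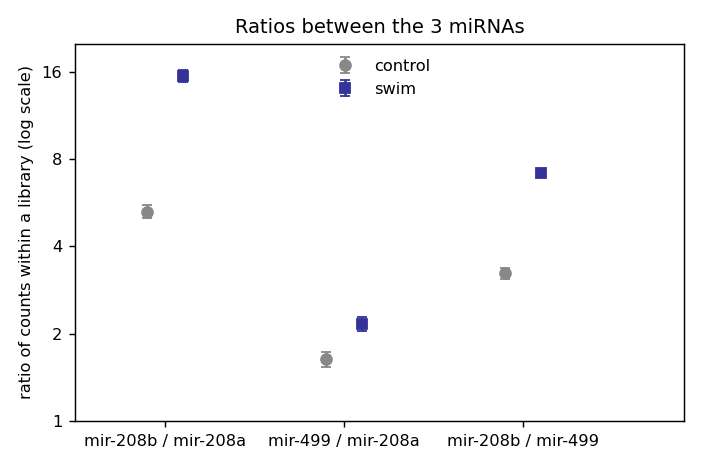
Ratios of counts within a library (log axis) for the 3 pairs of miRNAs, control as grey circles and swim as blue squares, with 95% exact binomial intervals. Every swim point lies above its control point, most widely for mir-208b over mir-208a (5.27 against 15.5) and least for mir-499 over mir-208a (1.63 against 2.16).

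Because mir-208a and mir-208b share a seed, their counts were also summed. The sum removes the effect of reads placed in the wrong one of these rows only if each read was counted once. Some copies of a hairpin, such as mir-24-1 and mir-24-2, hold the same counts, 6313 in control and 7259 in swim. Other copies do not: mir-92a-1 held 5001 and 7190, and mir-92a-2 held 598 and 430. Reads with several matches may thus have been counted in each row for some hairpins, and whether this touched mir-208a and mir-208b was not tested. The pair had 11127 counts in control and 34442 in swim, a level of 4522 CPM against 10696 CPM and a ratio of 2.37 (2.32 to 2.42). Against mir-499 the pair was 3.84 times as high in control (3.69 to 4.001) and 7.65 times in swim (7.41 to 7.89). The summed rows thus stood 1.99-fold higher against mir-499 in the swim library (1.89 to 2.097). Put the other way, mir-499 was at 0.502 times (0.477 to 0.529) its control standing against this pair, while it stood higher against mir-208a alone.

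The other muscle miRNAs give a further scale, since heart muscle cells make them too. Of the 5 names in a list of striated muscle miRNAs, mir-1, mir-133a and mir-133b have a row, and mir-206, a miRNA of skeletal muscle, and mir-486, which red cells also hold, have none in these tables. None of the 3 was called, 2 had ratios above 1 and 1 below, and their median log2 ratio was 0.23. The row of mir-133a held 152297 counts in control and 234320 in swim, a ratio of 1.18 (1.17 to 1.18). The row of mir-133b, a near copy of it in sequence, held 4859 and 12422, a ratio of 1.95 (1.89 to 2.02). The row of mir-1, the genomic neighbour and co-transcribed partner of mir-133a, held 3231 and 2640, a ratio of 0.624 (0.593 to 0.658). It held far fewer counts than the row of mir-133a, and its ratio lies on the other side of 1. The reason was not tested, so a factor against mir-1 describes read counts only. The 3 muscle rows therefore span ratios from 0.624 to 1.95, and the 3 myosin-gene rows from 0.899 to 2.64.

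Measured against mir-133a, mir-208b stood 2.25-fold higher in swim (2.20 to 2.30). The standing of mir-499 against mir-133a was 0.0190 in control and 0.0192 in swim, a factor of 1.01 (0.964 to 1.06) whose interval holds 1. That of mir-208a was 0.0116 in control and 0.00890 in swim, a factor of 0.764 (0.717 to 0.814). Against mir-133b the factors were 1.35 (1.30 to 1.41) for mir-208b, 0.608 (0.574 to 0.644) for mir-499 and 0.460 (0.428 to 0.494) for mir-208a. Against mir-1 they were 4.23 (4.002 to 4.48), 1.90 (1.77 to 2.04) and 1.44 (1.33 to 1.56). Only mir-208b was above 1 on all 3 of these muscle scales with an interval that leaves out 1; mir-499 and mir-208a changed side with the partner chosen.

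Markers of other cell types were set beside these values, since in bulk tissue fewer cells of a type and less RNA per cell cannot be told apart. The endothelial miRNA mir-126a had a ratio of 1.01 (1.00 to 1.02), and against it mir-208b stood 2.61-fold higher (2.55 to 2.68). The vascular smooth muscle pair had ratios of 0.936 for mir-143 and 1.32 for mir-145. Against mir-143 the factor of mir-208b was 2.82 (2.76 to 2.89). Against mir-30a, an abundant entry not used as a marker here, it was 1.80 (1.76 to 1.84). The factors against mir-30a were 0.808 for mir-499 and 0.612 for mir-208a. The leukocyte list had 4 of 5 names with a row, a summed level of 7117 CPM in control and 6990 in swim, and no call. Most of this sum was mir-146a, at 4576.5 CPM in control and 4876.5 in swim, a ratio of 1.07. The other leukocyte rows were below 1, at 0.908 for mir-150, 0.785 for mir-142 and 0.552 for mir-342. The fibroblast list had 3 of 3, with a summed level of 9652 CPM in control and 8847 in swim. It had 1 lower call, mir-214, a share close to the 32.9% over all entries. Its members went different ways, at ratios of 1.25 (1.20 to 1.30) for mir-199a, 0.866 for mir-21 and 0.37 for mir-214. Most of the summed level was mir-21, at 8142 CPM in control and 7054 in swim. Of the 3 erythroid names only mir-144 had a row, at 29.3 CPM in control and 24.8 in swim. Their part in the values of the myosin-gene miRNAs was not tested.

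The 3 miRNAs were also set beside other miRNAs that lie within protein-coding host genes. Of 26 such names 22 had a row, in 24 entries. Of these 24 entries 2 were called higher and 4 lower, 12 had ratios above 1 and 12 below, and the median log2 ratio was -0.01. Over all 173 entries 3.47% were called higher and 32.9% lower, with a median of -0.59. Most of the 24 entries have counts that sum to 1000 or more. Over the 79 entries of that abundance 6.33% were called higher and 3.80% lower, with a median of 0.07, close to that of the list. The highest in the host-gene list were mir-204, carried in the ion channel gene Trpm3, at 2.70 and mir-148b, carried in the coatomer gene Copz1, at 2.15. The lowest were mir-326 at 0.324 (0.194 to 0.525), on 59 and 25 counts, and mir-106b at 0.434 (0.340 to 0.552), on 192 and 109 counts. A list of 24 other miRNAs studied in cardiac hypertrophy had 22 names with a row and 23 tested entries. None of these was called higher and 5 were called lower, no larger a share than the 32.9% lower over all 173 entries. The median log2 ratio was -0.19 against -0.59. Most of these entries, both copies of mir-29b among them, have counts that sum to 1000 or more. Over the 79 entries of that abundance only 3.80% were called lower and the median was 0.07, above that of the list. The highest tested in the hypertrophy list were mir-133b at 1.95 and mir-29c at 1.78, and the lowest were both copies of mir-29b at 0.236.

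The scaling decides the direction for mir-208a and the size for all. Under 8 scalings, of which the one to mir-133a was chosen after seeing the data, the ratio of mir-208b ran from 2.25 to 3.99 and was called higher under all 8. A size rule of 3-fold in place of 2-fold would end this call on the scale used here. The background of higher calls under the other scalings was 10.4% with median-of-ratios factors, 6.36% with TMM factors, 6.94% unscaled, 3.47% without mir-143 in the total, 2.89% with the row Others in the total, 3.47% by the median of abundant entries and 1.73% by mir-133a. The ratio of mir-499 ran from 1.01 to 1.79 and that of mir-208a from 0.764 to 1.36, above 1 under 3 of the 8, and neither was called under any. The swim library would have to be scaled down by a factor of 1.73 before mir-208b fell to 2-fold, against a factor of 1.31 from the totals used here. The row Others, which names no miRNA, held 5.41% of all counts in control and 12.5% in swim.

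**Figure D5:**
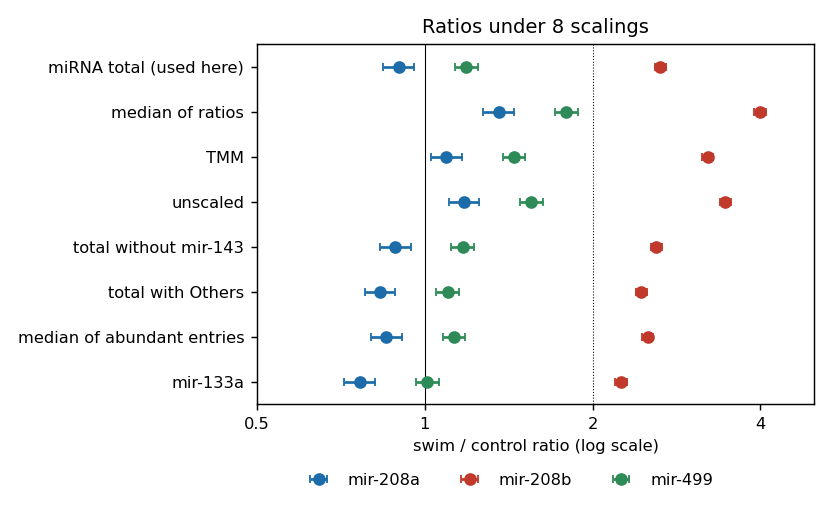
Swim-to-control ratio (log axis) of each miRNA under 8 scalings, with 95% exact conditional binomial intervals that treat the scaling as fixed; the solid line marks 1 and the dotted line 2. The mir-208b points lie between 2.25 and 3.99, right of the dotted line, while mir-208a lies on both sides of 1 and mir-499 between 1.01 and 1.79.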

How the data were processed

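Small RNA of the left ventricle was sequenced on Illumina instruments in 1 control and 1 swim library. Per library the authors deposited a single table, with counts as whole numbers per hairpin name and no scaling visible in the values. Among the entries the lowest count in each library is 1 and the next lowest is 5, and why none lies between is not stated. Ratios of entries with a count of 1, such as mir-671 with 1 in control and 20 in swim, rest on that value. Bowtie 0.12.2 and the builds rn5 and rn4 are named, with no role, per the submitters' processing notes. Trimming, mismatches allowed and the rule for reads with several matches are not stated in the labels. Of 203 rows, Others and 9 rows with an asterisk, which repeat other rows, were left out of the totals. The 2 unmarked rows of let-7e, whose counts are swapped, were kept in the totals only, which leaves 191 entries. The members and lists were chosen with earlier results of these data known. The 3 members, the muscle list, the 3 nearest entries by log2 ratio, the neighbours by control count and the 2 highest and lowest of the host-gene and hypertrophy lists are named; other entries were named after their values were seen.

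Intervals are 95% exact binomial (scipy 1.17.1), or, for the change of a within-library ratio, on the log scale from the reciprocals of the 4 counts. They cover counting error only, since PCR copies carry no molecular identifiers. The ratio rule was tried on simulated counts that hold planted changes and counting error only. That trial cannot speak to spread between animals or libraries. Scaling alternatives included TMM factors from edgeR 4.0.16, used only for these factors. RefSeq tables of build GRCr8 gave sequences and host genes; coordinates of the deposited files were not used.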

Additional observations from a re-analysis of the deposited data

How the results depend on the processing

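The ratios of mir-208b and mir-499 were above 1 under all 8 scalings and pseudocounts of 1 and 5, although by mir-133a the interval of mir-499 holds 1. The swim-to-control ratios with median-of-ratios factors were 1.36 for mir-208a, 3.99 for mir-208b and 1.79 for mir-499. With TMM factors they were 1.09, 3.22 and 1.45, unscaled 1.18, 3.46 and 1.55, with Others in the total 0.831, 2.45 and 1.10, and by mir-133a (added after seeing the data) 0.764, 2.25 and 1.01. By the median of abundant entries mir-208b had 2.51 and mir-499 had 1.13. With mir-208a and mir-208b summed, the change of mir-499 against them was 0.502 in place of 1.32, and that of mir-208b against mir-499 was 1.99. The share of the 3 miRNAs was 0.539% in control and 1.06% in swim with Others in the total, and 0.711% and 1.485% without mir-143. Over all entries, higher and lower calls numbered 6 and 57 as reported, 18 and 26 with median-of-ratios factors, 11 and 33 with TMM factors, 12 and 30 unscaled, and 1 and 26 at 3-fold, where mir-208b is no longer called. Higher calls numbered 12 at 1.5-fold, and lower calls 36 where counts sum to 100 or more and 3 where they sum to 1000 or more. Median-of-ratios factors raised every log2 ratio by 0.59. No paired analysis was possible because each group has 1 library. Replicate spread cannot be had from 1 library per group.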
